A study of Mus musculus with 16 samples.

Results

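The 34 genes described here are the mouse odorant receptor genes with symbols from Olfr161 to Olfr209, out of 1091 odorant receptor (Olfr) genes and 19505 genes measured in all. Within this range genes were taken by symbol, with no measured value used: the 34 are every protein-coding gene that RefSeq lists in this number range, each was read by 1 probe set, and all 34 lie on chromosome 16. Odorant receptors are G protein-coupled receptors, and each olfactory sensory neuron expresses mainly one of them, so the RNA of a receptor in a cell fraction follows the neurons that chose it. Receptor genes stand in clusters of relatives, and the MOR numbers among their synonyms group them by protein sequence. All 34 belong to class II, the group that holds most receptors of land vertebrates.

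Flow cytometry was used to sort cells of dissociated olfactory mucosa from mice with the S100a5-tauGFP allele, a reporter line whose green fluorescent protein marks S100a5, an activity-dependent gene of sensory neurons that encodes a calcium binder. The 4 groups are GFP+ cells after octanol, GFP- cells after octanol, GFP+ cells after vehicle and GFP- cells after vehicle, with 4 Clariom S arrays each. All mice carried the reporter, were of both sexes and 7 to 12 weeks old, and spent 40 h singly in clean air chambers. From 26 h on they received pulses of 10 s, one every 20 min, of the straight-chain alcohol octanol or, as vehicle, of filtered air. Each array measured 1 fraction of a pool of 3 mice, so a replicate is a pool and single animals were not resolved. For GFP+ against GFP- and for the ratio, p-values measure how the difference within a pool varies between pools, with the pairing inferred. For octanol against vehicle within a fraction, they measure the spread between pools.

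Values are log2 signals as the authors deposited them, so a difference of 1 stands for a 2-fold change. S100a5 itself was at 16.80 ± 0.04 log2 in octanol GFP+ cells against 15.93 ± 0.13 in octanol GFP- cells, and at 16.90 ± 0.11 in vehicle GFP+ cells against 16.08 ± 0.22 in vehicle GFP- cells (SD, n = 4). Omp, the defining marker of mature sensory neurons, was at 18.22 ± 0.04 and 18.10 ± 0.08 log2 in octanol GFP+ and octanol GFP- cells, and at 18.18 ± 0.02 and 18.11 ± 0.05 in vehicle GFP+ and vehicle GFP- cells, high in both fractions. Of 12 mature neuron markers 6 rose in GFP+ cells after octanol and 4 after vehicle, and none fell; the list median of 0.30 and 0.21 log2 turned to -0.20 and -0.10 with arrays centred on Olfr genes. Other cell types moved with the sort: in both exposures 7 of 9 immature neuron markers, 4 of 4 measured progenitor markers, 4 of 4 neutrophil markers, 4 of 4 myeloid, 3 of 3 lymphoid, 5 of 5 microvillar, 4 of 5 sustentacular, 3 of 4 Bowman gland markers and the 1 erythroid marker measured were lower in GFP+ cells by limma. Of all genes, 16.7% rose and 13.2% fell in GFP+ cells after octanol, and 14.7% and 13.5% after vehicle. The summed neutrophil signal was 11.09 to 14.12 log2 in octanol GFP+ and 18.74 to 19.38 in octanol GFP- arrays, and 9.74 to 11.34 in vehicle GFP+ and 18.43 to 19.07 in vehicle GFP- arrays. The summed immature neuron signal was 16.19 to 16.39 and 16.61 to 17.04 log2 in octanol GFP+ and GFP- arrays, and 16.23 to 16.35 and 16.89 to 17.16 in vehicle GFP+ and GFP- arrays. The sum is weighted to the brightest of these genes, and the median difference of the 9 was -2.23 log2 after octanol and -2.66 after vehicle. The summed progenitor signal was 8.01 to 8.49 and 11.63 to 12.99 log2 in octanol GFP+ and GFP- arrays, and 7.91 to 8.20 and 11.29 to 12.79 in vehicle GFP+ and GFP- arrays. The part of these cells in the receptor results was not tested, and fewer cells of a type and less RNA per cell cannot be told apart in sorted bulk samples.

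All 34 receptors had a mean over the 16 arrays above the background level of 6.32 log2, set at the 95th percentile of 321 vomeronasal receptor genes by their means. For 30 of them every array lay above it. The other 4 are Olfr161 (9 of 16 arrays above), Olfr172 (13 of 16), Olfr183 (15 of 16) and Olfr202 (15 of 16). Signals of different probe sets depend on their probes and are not ranked against each other here, so each receptor is compared only with itself across groups.

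**Figure D1:**
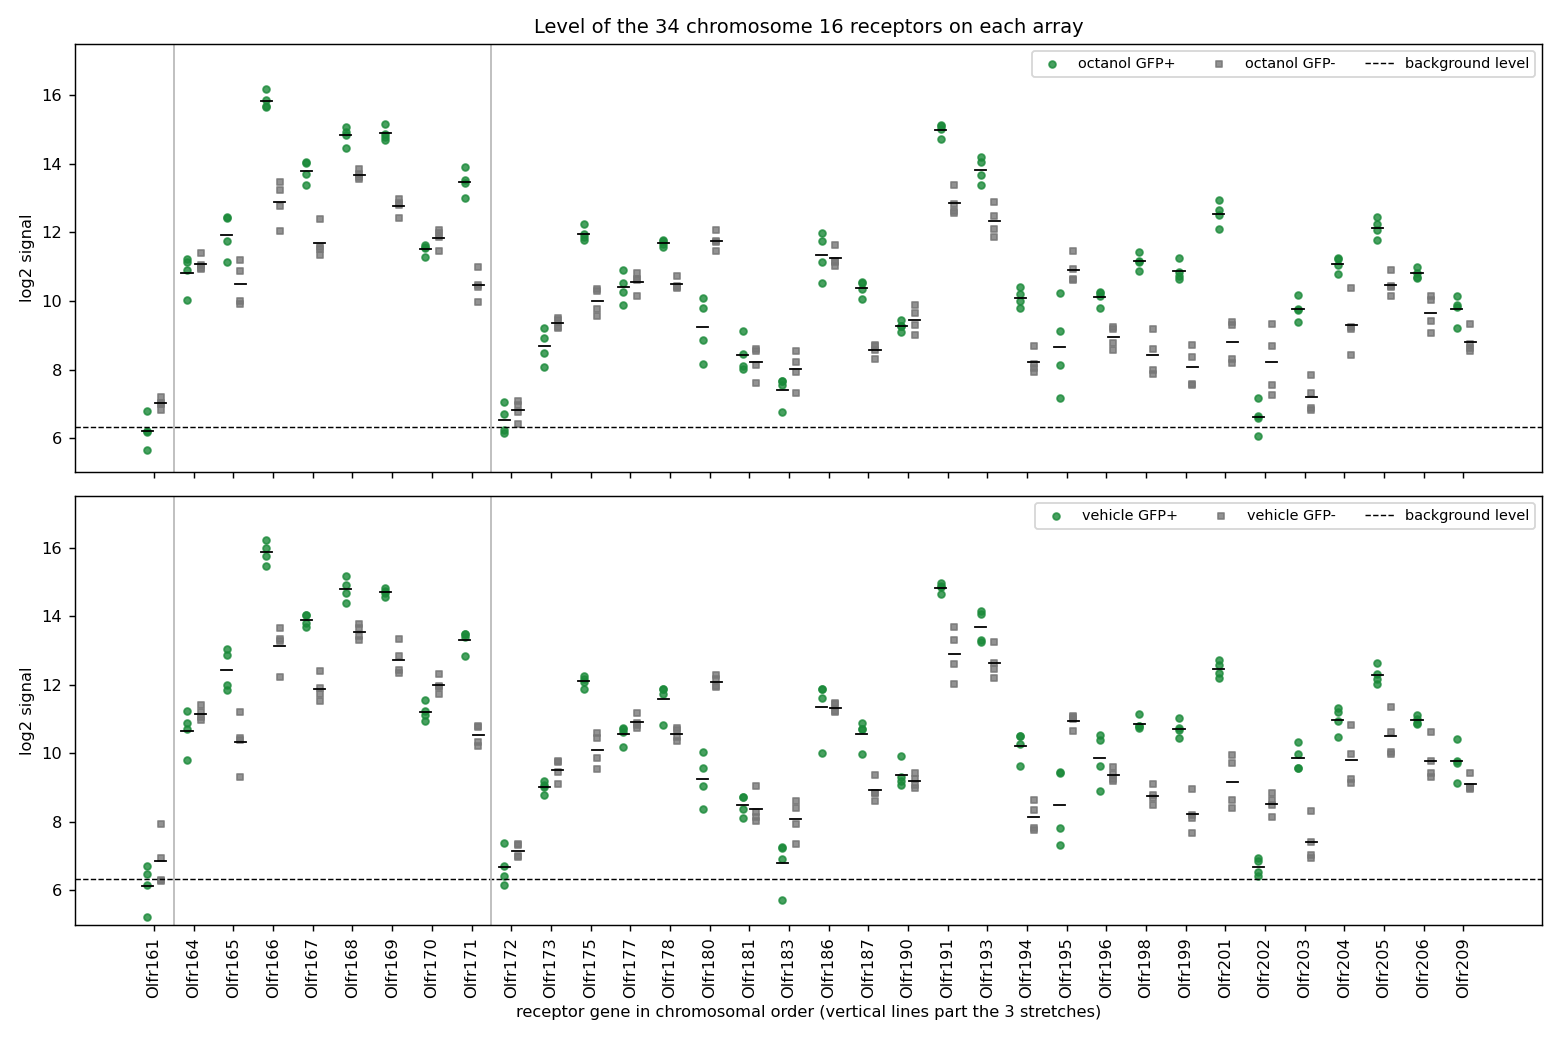
Log2 signal (y axis) of each of the 34 receptors (x axis, in chromosomal order) on every array, with octanol above and vehicle below; green circles are GFP+ arrays, grey squares GFP- arrays, short bars the mean of 4, and the dashed line the background of 6.32 log2. Most receptors sit higher in GFP+ cells in both panels, while Olfr180, Olfr195 and Olfr202 sit lower; heights of different receptors are not comparable because each has its own probes.

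Most of the 34 receptors were higher in GFP+ cells, as were most genes measured. By sign alone, 67.6% of the 34 were higher after octanol and 70.6% after vehicle. These shares are close to 67.3% and 66.1% of all genes and to 64.2% and 62.1% of Olfr genes. After octanol 21 of the 34 receptors rose in GFP+ relative to GFP- cells and 5 fell, and after vehicle 19 rose and 6 fell (limma, adjusted p under 0.05 over all 19505 genes). The median GFP+ minus GFP- difference of the 34 was 1.18 log2 after octanol and 1.12 after vehicle, against 0.14 and 0.13 over all genes and 0.58 and 0.41 over all 1091 Olfr genes. Over all genes, 16.7% rose and 13.2% fell after octanol, and 14.7% rose and 13.5% fell after vehicle. Over the Olfr genes, 47.1% rose and 21.6% fell after octanol, and 43.1% rose and 23.3% fell after vehicle, so the shares of the 34 (61.8% and 14.7% after octanol, 55.9% and 17.6% after vehicle) are to be read against those of receptors at large. The difference between the 34 and other receptors was not tested.

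How arrays are scaled shifts all genes together. With each array centred on its own median, the median difference after octanol was 1.45 for the 34 receptors and 0.41 for all genes, and with each array centred on its Olfr genes it was 0.68 and -0.36. After vehicle the same medians were 1.45 and 0.46, then 0.82 and -0.17. Centring on Olfr genes gave 19 higher and 10 lower receptors after octanol (65.5% of those called were higher), where the values as deposited gave 21 and 5 (80.8%). Without octanol pool 1, pool 2 or pool 4, the receptors called lower after octanol numbered 3, 2 and 3.

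The same receptors moved the same way in both exposures, which come from different mice. All 19 receptors called higher after vehicle were also called higher after octanol, 4 were called lower after both, 6 were called in neither, and none was called in opposite directions. Across the 34 genes, the differences after octanol and after vehicle had a Pearson r of 0.982, a description over genes that share each array and its scaling. The sign was the same in 33 of 34 receptors; the exception, Olfr190, differed by -0.18 after octanol and 0.20 after vehicle, within its error both times (95% intervals -0.64 to 0.27 and -0.26 to 0.65). Agreement in call, r and sign was not computed for all genes or all Olfr genes, so it is not shown to be particular to the 34. GFP+ and GFP- arrays did not overlap, with GFP+ higher, for 19 of the 34 after octanol and 18 after vehicle (55.9% and 52.9%, against 15.7% and 14.6% of all genes and 44.6% and 38.3% of Olfr genes). With GFP+ lower they did not overlap for 5 and 6 (14.7% and 17.6%, against 12.4% and 13.2% of all genes and 20.8% and 20.4% of Olfr genes).

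**Figure D2:**
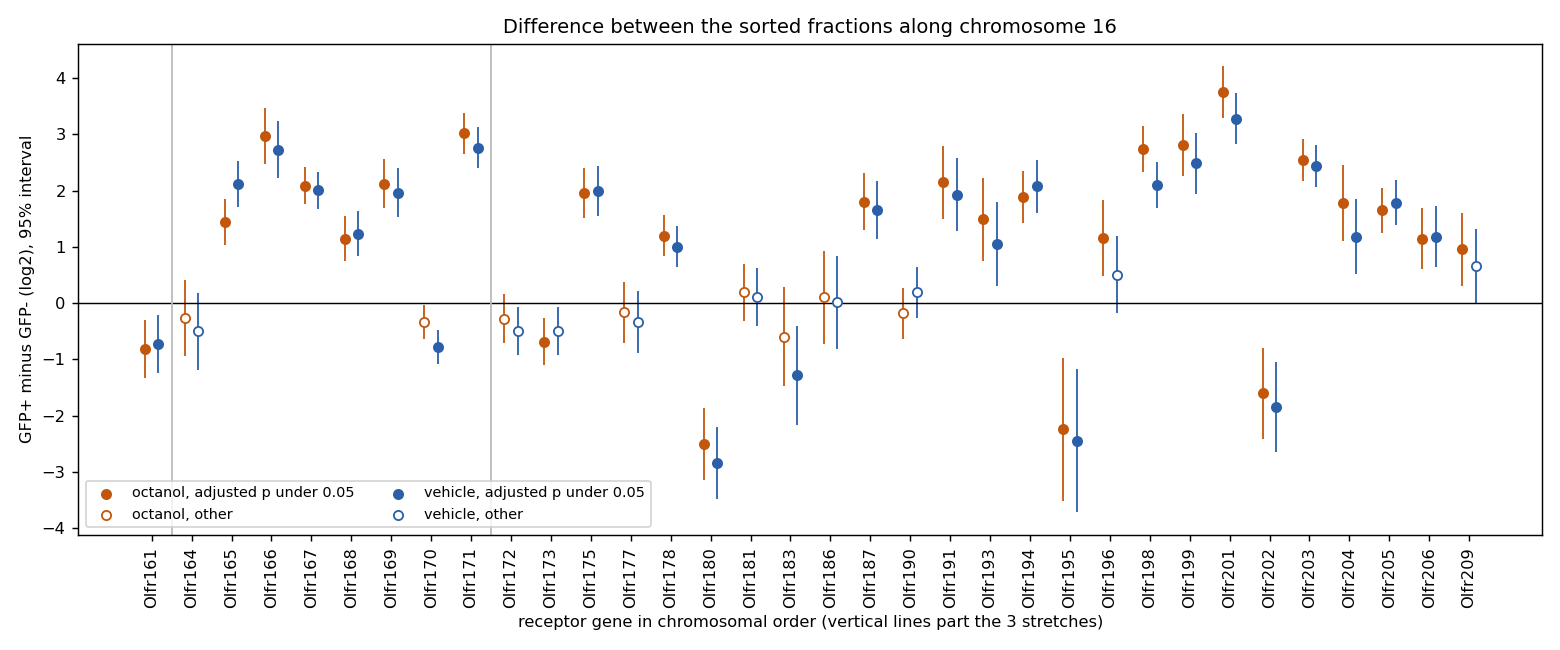
GFP+ minus GFP- difference in log2 (y axis) with its 95% interval from limma for each receptor in chromosomal order (x axis); orange is octanol, blue is vehicle, filled points passed an adjusted p of 0.05, and vertical lines part the 3 stretches. Differences run from -2.84 to 3.75, the exposures lie close together for each receptor, and Olfr170, Olfr180, Olfr195 and Olfr202 point down between neighbours that point up or lie near 0.

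In gene order the 34 receptors form 3 stretches: Olfr161 alone, the 8 genes from Olfr164 to Olfr171, and the 25 genes from Olfr172 to Olfr209. Stretches and neighbours were taken among the 34 only, so pseudogenes and any other genes between them were passed over. In the stretch of 8, 6 receptors rose in GFP+ cells in both exposures and Olfr170 fell after vehicle, with a median difference of 1.76 log2 after octanol and 1.99 after vehicle. Olfr166, the one MOR270 gene here, measured 16.19, 15.86, 15.65 and 15.68 log2 in octanol GFP+ cells against 12.76, 13.47, 12.04 and 13.25 in octanol GFP- cells. After vehicle it measured 16.23, 15.99, 15.47 and 15.74 log2 in GFP+ cells against 13.66, 13.29, 12.21 and 13.35 in GFP- cells. No GFP+ array overlapped a GFP- array, and the receptor was 7.81-fold higher after octanol (2.97 log2, SE 0.22, adjusted p = 5.77e-06) and 6.65-fold higher after vehicle (2.73 log2, SE 0.22, adjusted p = 1.03e-05, limma). Olfr167 of MOR272 rose by 2.09 log2 after octanol and 2.01 after vehicle, and Olfr168 of MOR271 by 1.15 and 1.24. Olfr165 of MOR279 rose by 1.44 after octanol and 2.12 after vehicle, whereas its MOR279 neighbour Olfr164 differed by -0.27 (95% interval -0.94 to 0.41) and -0.50 (-1.18 to 0.17) and did not pass.

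The 3 MOR273 genes Olfr169, Olfr170 and Olfr171 are neighbours and did not move alike. Olfr169 measured 15.18, 14.88, 14.79 and 14.71 log2 in octanol GFP+ cells against 12.41, 12.96, 12.81 and 12.87 in octanol GFP- cells, and 14.74, 14.69, 14.56 and 14.81 in vehicle GFP+ cells against 12.82, 13.34, 12.43 and 12.34 in vehicle GFP- cells. All GFP+ arrays exceeded all GFP- arrays, on average by 2.13 log2 after octanol (SE 0.20, adjusted p = 2.40e-05) and 1.97 after vehicle (SE 0.20, adjusted p = 4.30e-05). Olfr170 measured 11.56, 11.63, 11.29 and 11.56 log2 in octanol GFP+ cells against 11.45, 11.99, 11.86 and 12.07 in octanol GFP- cells, where the groups overlap. After vehicle it measured 11.11, 11.23, 10.93 and 11.56 log2 in GFP+ cells against 11.97, 11.73, 11.93 and 12.31 in GFP- cells, where every GFP+ array lay below every GFP- array. It fell by 0.78 log2 after vehicle (SE 0.13, adjusted p = 0.00166), and its difference after octanol was -0.33 (SE 0.13, adjusted p = 0.0877). The octanol fall passed with arrays centred on Olfr genes (-0.83 log2), without octanol pool 1 (-0.48) and in the fit with an intensity trend. Olfr171 measured 13.92, 13.54, 13.02 and 13.43 log2 in octanol GFP+ cells against 10.46, 10.98, 9.97 and 10.41 in octanol GFP- cells, and 13.47, 13.38, 12.85 and 13.48 in vehicle GFP+ cells against 10.76, 10.80, 10.33 and 10.22 in vehicle GFP- cells. It was 8.12-fold higher in GFP+ cells after octanol and 6.81-fold higher after vehicle (adjusted p = 6.18e-07 and 1.03e-06), with no overlap of arrays.

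The start regions of Olfr169 and Olfr170 are shown because they are the most alike of all pairs of windows compared here, while the genes differ in direction after vehicle. Each window runs from 250 bases before to 50 bases after the start that RefSeq annotates in GRCm38.p6, on the minus strand of chromosome 16: chr16:19566832-19567131 for Olfr169 and chr16:19606617-19606916 for Olfr170. In both, the base at the annotated start opens an ATG, so the windows show sequence around a start codon and not a mapped transcription start. Capitals mark bases that differ from the other window or are missing from it.
Olfr169: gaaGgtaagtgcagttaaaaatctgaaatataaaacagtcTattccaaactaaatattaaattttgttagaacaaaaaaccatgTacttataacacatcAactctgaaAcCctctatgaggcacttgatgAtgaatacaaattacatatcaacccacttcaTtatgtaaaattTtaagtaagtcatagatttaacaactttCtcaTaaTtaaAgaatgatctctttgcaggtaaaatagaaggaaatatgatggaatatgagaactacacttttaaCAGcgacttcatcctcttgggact
Olfr170: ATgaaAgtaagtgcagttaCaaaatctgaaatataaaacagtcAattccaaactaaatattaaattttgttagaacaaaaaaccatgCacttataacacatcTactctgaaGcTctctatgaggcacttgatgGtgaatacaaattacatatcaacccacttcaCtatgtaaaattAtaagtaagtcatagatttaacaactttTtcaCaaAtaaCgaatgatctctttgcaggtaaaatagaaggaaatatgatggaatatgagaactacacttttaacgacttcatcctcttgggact
Of 303 aligned positions 284 were identical (93.7%), 13 held different bases and 6 were gaps. The Olfr169 window holds the homeodomain core TAATTA starting at base 206 and TAATGA starting at base 159, counted from 1 at the 5′ end and searched on both strands, and neither lies in the Olfr170 window. Close relatives can share signal on an array; probe sequences were not used here, and how far the probe sets of this pair share signal was not tested.

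**Figure D3:**
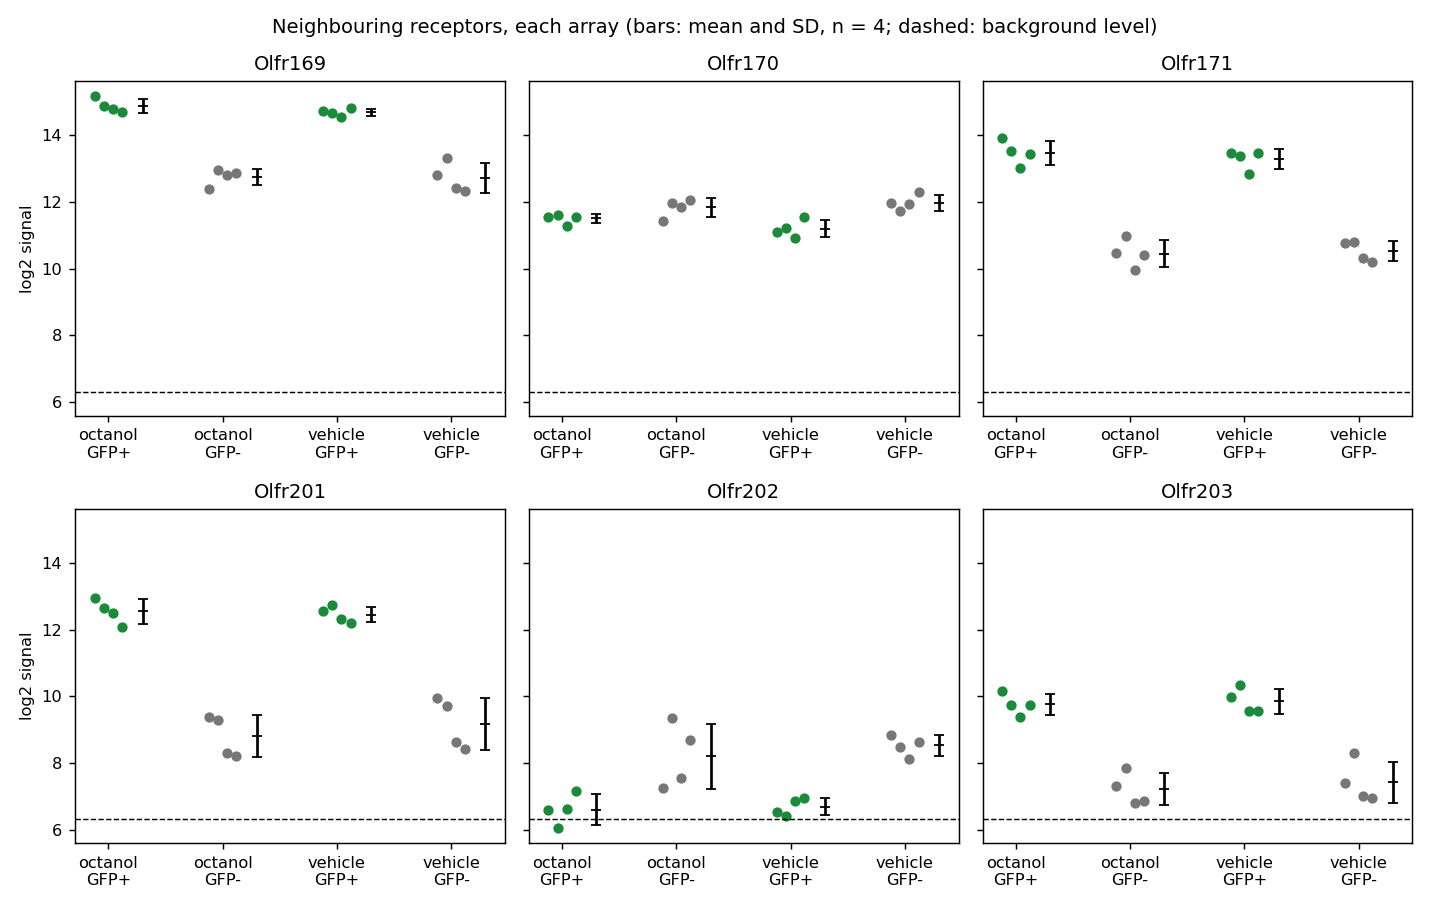
Log2 signal (y axis) on each array for 2 runs of 3 neighbouring receptors in the 4 groups (x axis); green points are GFP+ arrays, grey points GFP- arrays, black bars the mean and SD of 4, and the dashed line the background of 6.32 log2. In both runs the outer receptors are higher in GFP+ cells while the middle one, Olfr170 or Olfr202, is lower there after vehicle, and Olfr202 after octanol as well.

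In the stretch of 25, most genes belong to 3 families, MOR182, MOR183 and MOR184. Of the 10 MOR182 genes, which lie at the far end of the stretch, 9 rose and 1 fell in GFP+ cells after octanol, and 8 rose and 1 fell after vehicle, with medians of 1.84 and 1.93 log2. Of the 8 MOR184 genes, 2 rose and 3 fell after octanol and 2 rose and 2 fell after vehicle, with medians of -0.22 and -0.41; with arrays centred on their median the first of these turned to 0.05 and the second was -0.08, and with arrays centred on Olfr genes they were -0.72 and -0.71. Of the 6 MOR183 genes, 3 rose after octanol and 2 rose and 1 fell after vehicle, with medians of 0.63 and 0.35 (0.13 and 0.05 with arrays centred on Olfr genes). Olfr193, whose synonyms name both MOR113 and MOR183, rose by 1.49 log2 after octanol and 1.05 after vehicle. These counts describe small families and no difference between families was tested.

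**Figure D4:**
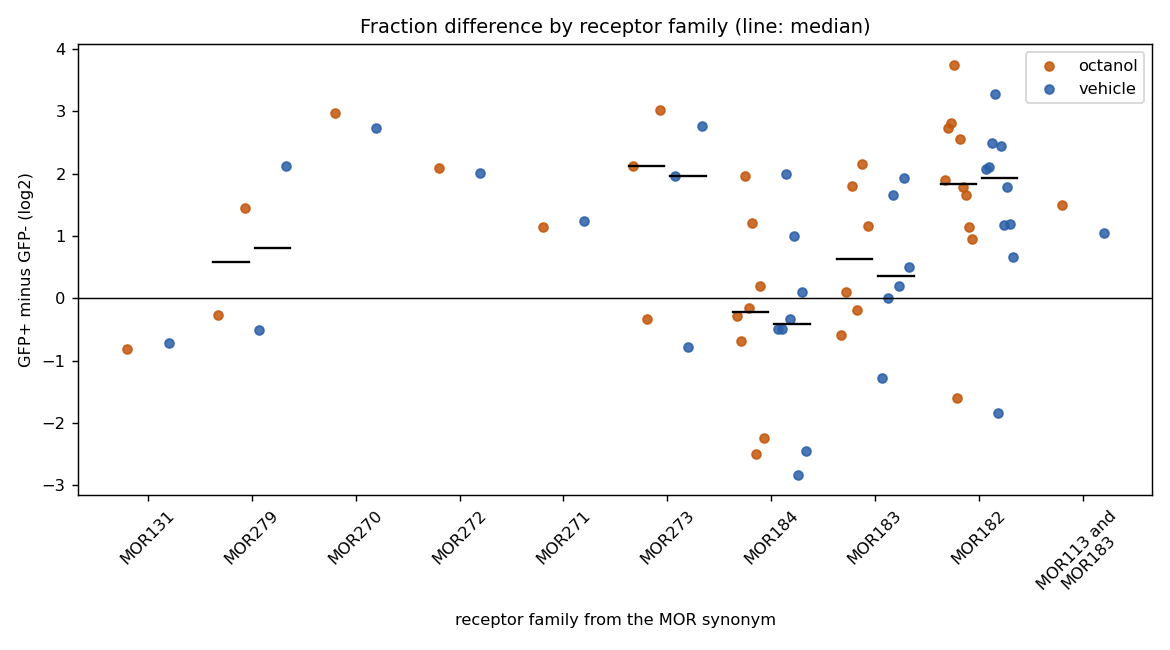
GFP+ minus GFP- difference in log2 (y axis) of each receptor, grouped by MOR family (x axis); orange is octanol, blue is vehicle, and black lines are family medians where a family holds more than 1 gene. All MOR182 points except those of Olfr202 lie above 0, while MOR184 points spread from -2.84 to 1.99.

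Olfr201, a MOR182 receptor, had the largest difference of the 34. It measured 12.96, 12.66, 12.51 and 12.09 log2 in octanol GFP+ cells against 9.38, 9.31, 8.31 and 8.20 in octanol GFP- cells. After vehicle it measured 12.56, 12.73, 12.34 and 12.20 log2 in GFP+ cells against 9.96, 9.71, 8.62 and 8.41 in GFP- cells. The groups lie far apart, and Olfr201 was 13.5-fold higher in GFP+ cells after octanol (3.75 log2, SE 0.21, adjusted p = 7.28e-07) and 9.74-fold higher after vehicle (3.28 log2, SE 0.21, adjusted p = 1.70e-06). In GFP- cells pools 1 and 2 of both exposures lay above pools 3 and 4.

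Its neighbour Olfr202, also of MOR182, went the other way. It measured 6.58, 6.05, 6.64 and 7.16 log2 in octanol GFP+ cells against 7.26, 9.34, 7.55 and 8.69 in octanol GFP- cells. After vehicle it measured 6.54, 6.40, 6.85 and 6.95 log2 in GFP+ cells against 8.85, 8.49, 8.13 and 8.65 in GFP- cells. In GFP+ cells it lay close to background, with 1 octanol array under it, and in GFP- cells all 8 arrays were above it and above every GFP+ array. After octanol Olfr202 was lower in GFP+ cells (-1.60 log2, SE 0.36, limma adjusted p = 0.0084), by 2.9-fold with the 1 array under background raised to it. After vehicle Olfr202 was 3.59-fold lower in GFP+ cells (-1.84 log2, SE 0.36, adjusted p = 0.00393).

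On the other side, Olfr203, a MOR182 receptor, again rose. It measured 10.17, 9.76, 9.38 and 9.75 log2 in octanol GFP+ cells against 7.32, 7.84, 6.82 and 6.87 in octanol GFP- cells, and 9.98, 10.34, 9.56 and 9.56 in vehicle GFP+ cells against 7.41, 8.30, 7.02 and 6.94 in vehicle GFP- cells. That is 5.86-fold higher in GFP+ cells after octanol and 5.42-fold higher after vehicle (adjusted p = 2.20e-06 and 3.08e-06), with no overlap. Olfr202 was the one receptor of the 34 called opposite to both neighbours in both exposures. The windows around the annotated starts of these 3 genes are shown to set the run side by side, at chr16:59269616-59269915 (minus strand), chr16:59284446-59284745 (minus strand) and chr16:59302905-59303204 (plus strand) of GRCm38.p6, each with an ATG at the annotated start. Capitals mark the homeodomain cores TAATTA and TAATGA on either strand.
Olfr201: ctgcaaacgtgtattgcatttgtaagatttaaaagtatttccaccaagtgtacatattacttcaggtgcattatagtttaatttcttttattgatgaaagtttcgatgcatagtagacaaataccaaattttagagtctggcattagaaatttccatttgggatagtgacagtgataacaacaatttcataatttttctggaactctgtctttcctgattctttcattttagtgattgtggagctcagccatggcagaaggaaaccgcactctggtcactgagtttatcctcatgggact
Olfr202: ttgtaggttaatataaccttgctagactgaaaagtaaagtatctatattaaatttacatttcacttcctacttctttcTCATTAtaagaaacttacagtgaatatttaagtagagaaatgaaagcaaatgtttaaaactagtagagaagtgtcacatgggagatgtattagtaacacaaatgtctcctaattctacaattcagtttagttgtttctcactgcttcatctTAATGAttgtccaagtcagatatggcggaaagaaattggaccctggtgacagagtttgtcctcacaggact
Olfr203: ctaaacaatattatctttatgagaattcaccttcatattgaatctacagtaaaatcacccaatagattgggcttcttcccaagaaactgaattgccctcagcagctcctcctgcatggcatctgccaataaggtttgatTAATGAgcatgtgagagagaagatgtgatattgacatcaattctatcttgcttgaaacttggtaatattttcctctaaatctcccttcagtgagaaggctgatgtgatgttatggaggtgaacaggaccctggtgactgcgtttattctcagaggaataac
The windows of Olfr201 and Olfr202 were 60.1% identical, and those 2 genes moved in opposite directions. Olfr202 holds 2 TAATGA matches, Olfr203 holds 1 and Olfr201 none.

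The rest of the MOR182 family rose. Olfr199 measured 11.27, 10.84, 10.64 and 10.74 log2 in octanol GFP+ cells against 7.59, 8.72, 7.56 and 8.37 in octanol GFP- cells, and 10.73, 11.02, 10.46 and 10.69 in vehicle GFP+ cells against 7.67, 8.94, 8.21 and 8.10 in vehicle GFP- cells. Its arrays did not overlap, and its differences were 2.81 log2 after octanol and 2.49 after vehicle. Olfr198 rose by 2.74 and 2.10 log2, Olfr194 by 1.89 and 2.08, Olfr205 by 1.66 and 1.79, Olfr204 by 1.78 and 1.18, and Olfr206 by 1.14 and 1.19, octanol first. Olfr209 rose by 0.96 log2 after octanol (adjusted p = 0.0333, higher in 3 of 4 pools), while its 0.66 after vehicle did not pass (adjusted p = 0.119) but did without vehicle pool 2 (0.98) and with arrays centred on their median (1.00). The call of Olfr204 after vehicle was lost without vehicle pool 1, 3 or 4 (differences of 0.98 to 1.18 log2), and that of Olfr209 after octanol without octanol pool 1, 3 or 4 (0.81 to 0.89) or with arrays centred on Olfr genes (0.46).

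Olfr180 and Olfr195, both MOR184 receptors, had the largest falls. Olfr180 measured 8.18, 8.87, 9.80 and 10.10 log2 in octanol GFP+ cells against 11.45, 11.72, 11.74 and 12.08 in octanol GFP- cells. After vehicle it measured 9.57, 8.39, 9.03 and 10.03 log2 in GFP+ cells against 12.17, 11.97, 12.29 and 11.94 in GFP- cells. All GFP+ arrays lay below all GFP- arrays and spread more widely than them, and the receptor was 5.68-fold lower after octanol (-2.51 log2, SE 0.29, adjusted p = 0.000116) and 7.14-fold lower after vehicle (-2.84 log2, SE 0.29, adjusted p = 4.81e-05). Olfr195, which stands apart from the other MOR184 genes between MOR182 and MOR183 genes, measured 8.14, 7.18, 10.24 and 9.11 log2 in octanol GFP+ cells against 10.62, 11.47, 10.64 and 10.92 in octanol GFP- cells. After vehicle it measured 7.81, 7.32, 9.45 and 9.43 log2 in GFP+ cells against 11.01, 11.08, 10.66 and 11.06 in GFP- cells. Groups did not overlap, but GFP+ pools 1 and 2 of both exposures lay below pools 3 and 4. Its differences were -2.24 log2 after octanol (SE 0.57, adjusted p = 0.015) and -2.45 after vehicle (SE 0.57, adjusted p = 0.01), and the octanol call was lost without pool 1 (-2.17 log2, adjusted p = 0.0611) or pool 2 (-1.56, adjusted p = 0.0592).

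Other MOR184 genes ran against these. Olfr175 measured 12.25, 11.78, 11.96 and 11.86 log2 in octanol GFP+ cells against 10.30, 10.34, 9.78 and 9.56 in octanol GFP- cells, and 12.16, 12.09, 12.27 and 11.88 in vehicle GFP+ cells against 10.45, 10.58, 9.53 and 9.87 in vehicle GFP- cells. It rose by 1.96 log2 after octanol and 1.99 after vehicle without overlap, and Olfr178, next but one to Olfr175 and beside Olfr180, rose by 1.20 and 1.01. Olfr173 fell by 0.68 log2 after octanol (adjusted p = 0.0231) and measured -0.50 after vehicle (adjusted p = 0.0778); the octanol call was lost without pool 1, 2 or 4 (-0.73 to -0.43) and with arrays centred on their median (-0.41). Olfr172, Olfr177 and Olfr181 passed in neither exposure, with differences between -0.49 and 0.19 log2.

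Among MOR183 genes Olfr191 and Olfr187 rose in both exposures. Olfr191 measured 15.14, 14.72, 15.02 and 15.11 log2 in octanol GFP+ cells against 12.83, 13.39, 12.57 and 12.61 in octanol GFP- cells, and 14.85, 14.65, 14.88 and 14.96 in vehicle GFP+ cells against 13.29, 13.69, 12.03 and 12.61 in vehicle GFP- cells. Its arrays did not overlap, at 2.15 log2 after octanol and 1.93 after vehicle, and Olfr187 rose by 1.81 and 1.65. Olfr196 rose by 1.16 log2 after octanol (adjusted p = 0.0174; lost without octanol pool 1, 3 or 4, at 0.99 to 1.20, and with arrays centred on Olfr genes, at 0.66) and measured 0.51 after vehicle (adjusted p = 0.238), where it passed without vehicle pool 2 (0.91) and with arrays centred on their median (0.84); the difference between the exposures was 0.65 log2 (adjusted p = 0.998). Olfr183 fell after vehicle (-1.28 log2, limma adjusted p = 0.0355), or 2.2-fold with 1 GFP+ array under background raised to it. Its difference after octanol was -0.60 log2 (adjusted p = 0.278). The vehicle call of Olfr183 was lost without vehicle pool 1, 2 or 4 (-1.47 to -0.75 log2), after quantile normalization (-1.21), and in the fit with an intensity trend (-1.28). Olfr186 and Olfr190 passed in neither exposure, between -0.18 and 0.20 log2. The vehicle call of Olfr193 was lost without vehicle pool 1, 3 or 4 (0.79 to 1.18 log2), with arrays centred on Olfr genes (0.75), and in the fit with an intensity trend.

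Olfr161, the MOR131 receptor that forms a stretch by itself among the receptors described here, lay at or near background on many arrays. It measured 6.17, 5.64, 6.78 and 6.21 log2 in octanol GFP+ cells against 6.82, 7.03, 7.20 and 6.99 in octanol GFP- cells, and 6.71, 6.48, 5.22 and 6.15 in vehicle GFP+ cells against 6.93, 7.94, 6.29 and 6.28 in vehicle GFP- cells. Above background were 1 of 4 octanol GFP+ and 4 of 4 octanol GFP- arrays, and 2 of 4 vehicle GFP+ and 2 of 4 vehicle GFP- arrays. Olfr161 was lower in GFP+ cells after octanol (-0.81 log2, limma adjusted p = 0.0248) and after vehicle (-0.72 log2, adjusted p = 0.0411). With array values under background raised to it, these falls were 1.49-fold and 1.34-fold. Both calls were lost without the pool block (adjusted p = 0.102 after octanol and 0.148 after vehicle) and with arrays centred on their median (-0.54 and -0.39 log2). The octanol call was also lost without octanol pool 1, 2 or 4 (-0.86 to -0.62) and the vehicle call without vehicle pool 2 or 3 (-0.61 to -0.47). The vehicle values of the fractions overlap.

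Neighbouring receptors, meaning consecutive ones of the 34, shared a call in some pairs and not in others. The 31 pairs of neighbours within a stretch held 13 pairs after octanol and 11 after vehicle in which both receptors were higher in GFP+ cells, 6 pairs in each exposure in which one was higher and the other lower, and none in which both were lower. These counts are to be read against the calls of the 34, of which 61.8% were higher and 14.7% lower after octanol. After vehicle the shares were 55.9% and 17.6%. Whether neighbours were more alike than other pairs was not tested. Besides Olfr202, receptors called opposite to both neighbours were Olfr195 after octanol and Olfr170 after vehicle.

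Whether octanol changes these receptors was asked in 3 ways: its effect on the GFP+ to GFP- ratio, and octanol against vehicle within each fraction. By limma 0 of the 34 receptors passed in any of the 3, as did 0% of all 19505 genes. At an unadjusted p under 0.05 there were 3 receptors for the ratio, 0 in GFP+ cells and 2 in GFP- cells. In the same order the counts were 886, 727 and 894 over all 19505 genes. Over the 1091 Olfr genes they were 74, 42 and 119, so the 3 and 2 are not marked out by number. No receptor of the 34 had octanol and vehicle arrays that did not overlap, whether in GFP+ or in GFP- cells. Of all genes, 1.25% had such arrays with octanol higher and 0.964% with octanol lower in GFP+ cells, and 1.06% and 1.51% in GFP- cells. Of the Olfr genes the shares were 0.275% and 0.733% in GFP+ cells, and 0.0917% and 2.66% in GFP- cells.

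For the ratio, the largest differences came from Olfr183 (0.69 log2, 95% interval -0.56 to 1.93) and Olfr165 (-0.67 log2, -1.25 to -0.10). Ordered by unadjusted p, the first 4 receptors were Olfr165, Olfr198 (0.64 log2, 0.05 to 1.22), Olfr170 (0.45 log2, 0.03 to 0.87) and Olfr201 (0.47 log2, -0.18 to 1.12), each with an adjusted p of 0.998 in limma. Olfr165 measured 12.42, 12.45, 11.15 and 11.74 log2 in octanol GFP+ cells against 12.87, 13.05, 12.00 and 11.86 in vehicle GFP+ cells, and 11.21, 10.88, 10.00 and 9.90 in octanol GFP- cells against 10.38, 11.19, 10.44 and 9.30 in vehicle GFP- cells. Both pairs of groups overlap. Olfr198 measured 11.42, 11.17, 11.13 and 10.89 log2 in octanol GFP+ cells against 10.78, 10.75, 10.79 and 11.14 in vehicle GFP+ cells, and from 7.88 to 9.18 in the 4 octanol GFP- arrays against 8.78, 9.09, 8.70 and 8.49 in vehicle GFP- cells, again with overlap. The ratio was higher after octanol for 25 of the 34 receptors (73.5%), close to 72.4% of all Olfr genes and above 55.5% of all genes, with medians of 0.20, 0.17 and 0.03 log2. With arrays centred on their Olfr genes the median of the 34 was 0.00.

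Within GFP+ cells the 34 differences between octanol and vehicle ran from -0.50 to 0.62 log2 with a median of 0.01. Ordered by unadjusted p, the first 4 were Olfr170 (0.30 log2, 95% interval -0.03 to 0.64), Olfr198 (0.29, -0.04 to 0.61), Olfr183 (0.62, -0.14 to 1.39) and Olfr173 (-0.35, -0.85 to 0.15), all with an adjusted p of 1.00. Intervals were widest for Olfr195 (-1.34 to 1.67), whose GFP+ arrays spread most, so a change of 2-fold in either direction was within its error. Within GFP- cells the differences ran from -0.49 to 0.28 log2 with a median of -0.15, and 6 of 34 (17.6%) were above 0, against 23.5% of all Olfr genes and 46.2% of all genes. With arrays centred on Olfr genes the median of the 34 turned to 0.01. Ordered by unadjusted p, the first 4 were Olfr196 (-0.41 log2, 95% interval -0.79 to -0.03), Olfr180 (-0.35, -0.69 to -0.01), Olfr177 (-0.34, -0.70 to 0.02) and Olfr172 (-0.35, -0.72 to 0.03), all with an adjusted p of 0.982.

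**Figure D5:**
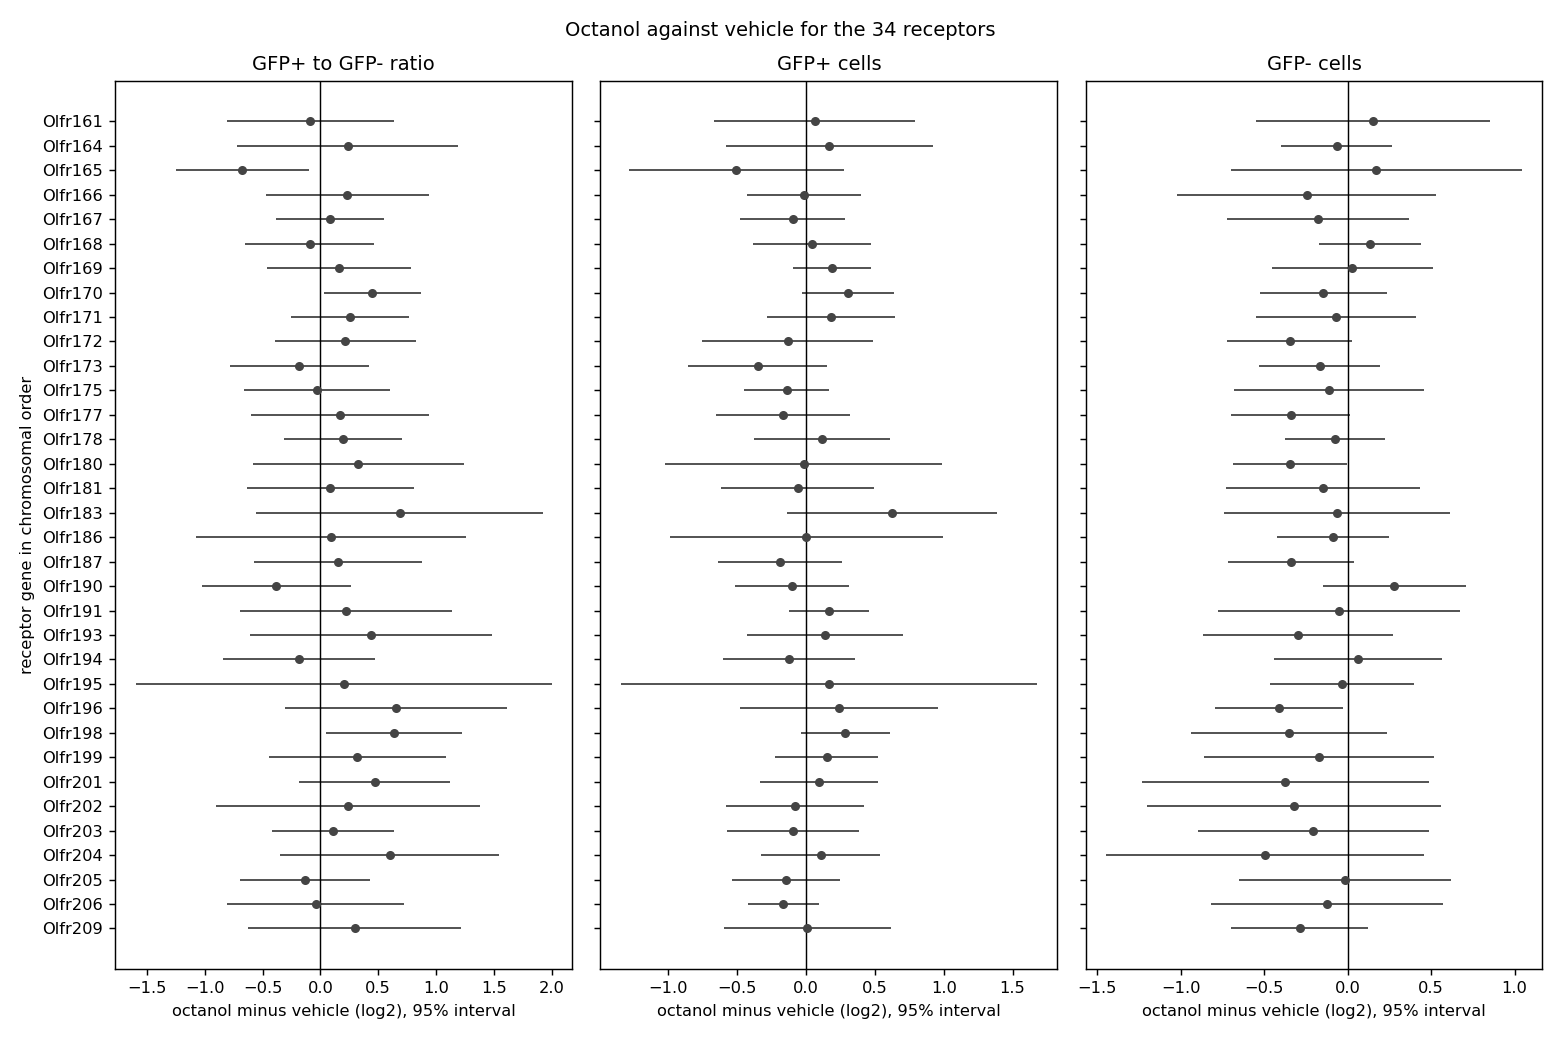
Octanol minus vehicle in log2 (x axis) with its 95% interval from limma for each receptor (y axis, in chromosomal order), for the GFP+ to GFP- ratio, GFP+ cells and GFP- cells from left to right. All intervals cross 0 but 3 for the ratio (Olfr165, Olfr170 and Olfr198) and 2 in GFP- cells (Olfr180 and Olfr196), and none of the 34 receptors passed an adjusted p of 0.05 in any panel.

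Start windows were available for 27 of the 34 receptors and had an ATG at the annotated start in 17 of them. The windows of Olfr166, Olfr167, Olfr168, Olfr171, Olfr195, Olfr199 and Olfr204 were not used here. Homeodomain proteins such as Lhx2 and proteins of the Ebf family are known regulators of receptor genes, so their core letters were searched on both strands. TAATTA was found in 4 of 27 windows (14.8%), against 18.6% of 944 Olfr windows and 5.29% of all 32851 windows of the same length. TAATGA was found in 7 of 27 (25.9%), against 28.8% and 9.78%. The TATA letters TATAAA were found in 12 of 27 (44.4%), against 41.2% and 13.6%, and the Ebf core (TCCC, any 2 bases, GGGA) in 0 of 27, against 0.530% and 0.904%. These shares describe letters in a window. How many of the other Olfr windows or of all windows have an ATG at the annotated start was not counted, so the sets may differ in the kind of region. Pairs of windows within a MOR family were 44.3% to 93.7% identical (median 49.9%, 66 pairs) and pairs of different families 42.3% to 56.0% (median 48.4%, 259 pairs), leaving out Olfr193, which carries 2 family names. The second most alike pair, Olfr191 and Olfr193 at 82.2%, rose together in both exposures, and the third, Olfr164 and Olfr165 at 68.5%, did not.

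Genes of receptor signalling and transport had small median differences between the fractions. Counts of these short lists are to be read against all genes, of which 16.7% rose and 13.2% fell after octanol. After vehicle 14.7% rose and 13.5% fell. Of 11 olfactory signalling genes 4 rose and 0 fell in GFP+ cells after octanol and 2 rose and 0 fell after vehicle, with medians of 0.25 and 0.19 log2 (-0.24 and -0.11 with arrays centred on Olfr genes). The pair that rose in both exposures was Ano2, which encodes a ciliary chloride channel (0.52 and 0.50), and Adcy3, the cyclase of the odor response (0.32 and 0.30). Of 4 receptor transport genes 2 rose in each exposure, Reep1 by 0.38 and 0.54 and the chaperone gene Rtp2 by 0.39 and 0.40. The list median was 0.39 in both exposures (-0.11 after octanol and 0.09 after vehicle with arrays centred on Olfr genes). Of 15 genes tied to receptor choice 2 rose and 1 fell after octanol and 1 fell after vehicle. The one that fell was Lbr, the lamin B receptor, whose loss in sensory neurons brings heterochromatin together (-1.89 and -1.83 log2). Neutrophil, myeloid and progenitor markers were lower in GFP+ cells too (list medians of -6.75, -5.79 and -2.76 log2 after octanol). The part of such cells in the Lbr fall was not tested. Activity-raised genes all rose, 5 of 5 in each exposure, with medians of 1.39 and 1.27 log2, and S100a5, which the sort selects, is among them. Of the dorsal and ventral zone genes, 3 each, none passed in limma in either exposure.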

How the data were processed

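Total RNA of 50 to 100 ng was made into biotinylated cRNA for the arrays, per the labels' protocols. The deposited log2 signals were computed by the authors with Affymetrix Expression Console, per the submitters' processing notes, with software version and summary method not given in the sources used here; values were used as deposited. Of 28846 probe sets, 19572 carry exactly 1 gene symbol, and the one of highest mean was taken per gene (19505). Gene order and synonyms came from RefSeq of GRCm38.p6. The 34 receptors were split into stretches where consecutive ones lie over 1000000 bases apart, a limit chosen here. The arrays' number limits the precision.

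Limma 3.58.1 in R 4.3.3 was fitted to all genes with Benjamini-Hochberg adjustment over all 19505. GFP+ against GFP- and the ratio were fitted to 16 arrays, blocked by pool, which left 6 residual degrees of freedom. Octanol against vehicle within a fraction used 8 arrays. The pairing of fractions is inferred from 24 mice in 8 pools of 3. Residuals of the 2 fractions of a pool correlated at 0.0779 to 0.222, above 0.1 in 6 of 8, which does not establish it. Octanol and vehicle arrays of the same replicate number, from different pools, correlated as much: 0.0582 to 0.230 in GFP+ and 0.0719 to 0.332 in GFP- cells. Of the 88 pairs in different groups that were not of 1 pool, 17 were above 0.1. Windows were aligned globally with Biopython 1.88. The number range that defines the members, and the gene lists, were proposed with earlier results of these data known. The text names up to 12 receptors called in each direction per exposure by size, the 4 of lowest p for octanol, and those opposed to both neighbours or alike in sequence; other members are named to account for all 34. Levels were not ranked across probe sets, and likeness was judged on start windows since no protein sequences were used here. For the folds of Olfr161, of Olfr183 after vehicle and of Olfr202 after octanol, array values under 6.32 log2 were raised to it. Alternatives were scaling, dim-gene filter, variance trend, probe set averaging, block and leaving out pools.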

Additional observations from a re-analysis of the deposited data

Results flagged for a closer look

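Within groups of 4 arrays, 8 of 136 receptor and group combinations (5.88%) held an array set apart from the other 3 by a gap beyond Dixon's 95% critical value, which chance exceeds in about 1 in 20 groups. In octanol GFP+ cells the lowest array stood apart for Olfr183 (6.77, next 7.54). In octanol GFP- cells the highest array stood apart for Olfr178 (10.73, next 10.42). In vehicle GFP+ cells the lowest array stood apart for Olfr171 (12.85 log2, next 13.38), Olfr178 (10.81, next 11.71) and Olfr186 (10.02, next 11.62), and the highest for Olfr198 (11.14, next 10.79). In vehicle GFP- cells the lowest array stood apart for Olfr195 (10.66, next 11.01) and the highest for Olfr209 (9.42, next 9.03). No receptor moved one way in all 4 octanol pools and the other way in all 4 vehicle pools.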

How the results depend on the processing

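Of the 26 receptors called between the fractions after octanol, 21 kept their call under all 11 alternatives, and of the 25 called after vehicle 21 did; none reversed. Of the receptors not called, 5 of 8 after octanol (Olfr164, Olfr170, Olfr172, Olfr183 and Olfr190, all lower with arrays centred on Olfr genes) and 5 of 9 after vehicle (Olfr172 and Olfr173 lower, Olfr190, Olfr196 and Olfr209 higher) gained a call under some alternative. The count of receptors lower in GFP+ cells after octanol was 5, then 3 after centring each array on its median and 10 after centring it on Olfr genes, and lay between 2 and 5 when 1 pool was left out. Without the pool block the counts were 21 higher and 4 lower after octanol and 19 higher and 5 lower after vehicle. With the replicate number as a block the octanol against vehicle comparisons stayed at 0 in both fractions, and the lowest adjusted p of any receptor under any alternative was 0.679 for the ratio, 0.945 in GFP+ cells and 0.726 in GFP- cells. In octanol GFP+ and in vehicle GFP+ cells, 33 of the 34 receptors had a group mean above background, and 34 at the looser 90th percentile (5.99 log2). Values near background limit Olfr161, Olfr172, Olfr183 and Olfr202.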
